A study of Mus musculus with 4 samples.

Results

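The genes described are the 7 genes for AMPA receptor pore subunits and auxiliary proteins that were listed by name for this work, Gria1, Gria2, Gria3, Gria4, Cnih2, Cnih3 and Shisa9, out of 31053 genes counted. All 7 were found once in each count matrix, and all 7 passed the low-count filter of every test below. They were followed across the 7 excitatory neuron subtypes that the authors annotated, across inhibitory neurons gated here and, for reference, across non-neuronal cells. The cells came from the ventromedial prefrontal cortex (vmPFC, prelimbic and infralimbic areas) of male C57BL/6 mice injected at 8 weeks of age. Every mouse had received rAAV2-retro viruses on one side that carried EGFP and a barcode, 1 barcode for each of 5 targets. These were the lateral hypothalamus (LH), the mediodorsal thalamus (MD), the agranular insular cortex (AI), the basolateral amygdala (BLA) and the dorsomedial striatum (DMS). No uninjected animal was included. Of the 4 single-cell libraries, 3 were unsorted and came from 1 mouse each, and 1 was sorted for EGFP fluorescence and came from 3 pooled mice.

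AMPA receptors are tetrameric glutamate-gated ion channels that carry most of the fast excitatory current in the cortex. GluA1 to GluA4, encoded by Gria1 to Gria4, form the pore, and an edited GluA2 subunit makes the channel poorly permeable to calcium. Auxiliary proteins such as the cornichon homologues (Cnih2, Cnih3), the TARPs (Cacng genes) and the Shisa family (Shisa9, also called CKAMP44) bind the pore subunits and change their trafficking and gating. Before enzymatic dissociation, brain slices were incubated with CNQX, which blocks AMPA receptors, and D-AP5, which blocks NMDA receptors. Tissue for the sorted library was stated to be dissociated the same way.

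In GRCm38 with the GENCODE M21 annotation, all 7 are protein-coding genes. Gria1 (ENSMUSG00000020524) lies at chr11:57011387-57330244 on the plus strand, Gria2 (ENSMUSG00000033981) at chr3:80681450-80802835 on the minus strand, Gria3 (ENSMUSG00000001986) at chrX:41400854-41678601 on the plus strand and Gria4 (ENSMUSG00000025892) at chr9:4417896-4796234 on the minus strand. Cnih2 (ENSMUSG00000024873) lies at chr19:5092868-5098521 on the minus strand and overlaps Yif1a on the other strand. Cnih3 (ENSMUSG00000026514) lies at chr1:181352628-181460641 on the plus strand and overlaps 2900069G24Rik on the same strand, so that reads of these genes may not be separable. It also overlaps Gm16547 and Gm16539 on the other strand. Gria2, Gria3 and Gria4 overlap Gm25749, Gm22413 and Gm23811, in that order, on the same strand, so the same limit may hold for them. Shisa9 (ENSMUSG00000022494) lies at chr16:11984113-12270902 on the plus strand. The counts are unique molecular identifiers (UMIs) from the 3' ends of transcripts. Levels are given as CPM, the counts of a gene per 1000000 UMIs of the summed cells of 1 group in 1 library, as mean ± SD over the 3 unsorted libraries unless stated. Because 3' capture can differ between genes, levels and subunit shares were compared between cell groups and were not read as subunit stoichiometry.

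The unsorted libraries held 7243 to 8040 cell barcodes and 83065993 to 87841541 UMIs, and the sorted library held 2075 barcodes and 54749198 UMIs. Any pair of libraries shared 5 to 30 barcode sequences. The authors' table lists 9368 excitatory neurons, 7765 of them in the unsorted libraries. Each of the 7 subtype label genes was highest in its own subtype. Although the labels describe labelled neurons, the unsorted libraries also held glia and vascular cells. Inhibitory neurons numbered 1278 in the unsorted libraries. They had a Slc32a1 level of 353 CPM, compared with 0.28 CPM in excitatory cells, and a Neurod6 level of 1.83 CPM, compared with 252 CPM. The sorted library stood apart in its mitochondrial UMIs, which made up 3.49% of the UMIs of its excitatory neurons against 6.71 to 6.77% in the unsorted libraries, and in its median of 31669 UMIs per neuron against 21343.5 to 23213. It is therefore given beside the unsorted libraries and not averaged with them.

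The first question was how each pore subunit was distributed over the excitatory subtypes. The subtypes came from clustering the same cells on their expression, so levels by subtype are described without a test. Gria1, which encodes GluA1, a subunit delivered to synapses during plasticity, was highest in L6-Npy and L5-Bcl6 neurons. In L6-Npy neurons of the 3 unsorted libraries it measured 410, 429 and 389 CPM (409 ± 20.0), and in L5-Bcl6 neurons 404.5, 388.5 and 398 CPM (397 ± 8.05). These ranges overlapped, and both lay above every other subtype. L2/3-Calb1 (299 ± 10.8 CPM), L5-S100b (276 ± 8.68 CPM), L6-Syt6 (246 ± 1.42 CPM) and L2/3-Rorb neurons (223 ± 6.49 CPM) followed with no overlap between neighbours. L5-Htr2c neurons were lowest at 140.3, 180.0 and 202 CPM, the widest spread among the subtypes for this gene. The highest mean was 2.35-fold the lowest.

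Gria2, the gene for the subunit that limits calcium entry, varied least among the 4 pore genes, with a 1.45-fold span. L5-Bcl6 neurons were highest at 1280, 1322 and 1230 CPM, and L2/3-Rorb neurons lowest at 879, 901 and 858 CPM. The other subtypes lay between 948 ± 6.85 CPM in L6-Npy and 1069 ± 28.6 CPM in L2/3-Calb1 neurons. In this middle range L5-S100b overlapped with L6-Syt6, and L5-Htr2c with L6-Npy.

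Gria3, an X-linked pore gene, had the widest span of the 4, at 4.33-fold, though that of Gria4 was nearly equal at 4.29-fold. L5-Bcl6 neurons again stood highest, with 544, 566 and 529 CPM, and L5-Htr2c neurons lowest, with 128.7, 124.9 and 125.3 CPM. Every library of L5-Bcl6 therefore exceeded every library of the other 6 subtypes. The next subtype, L2/3-Calb1, reached 334 ± 20.5 CPM, L6-Syt6 307 ± 5.30 CPM and L2/3-Rorb 197 ± 5.38 CPM, while L5-S100b (283 ± 14.6 CPM) and L6-Npy (279 ± 15 CPM) overlapped.

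Gria4, whose product GluA4 is best known from fast-spiking interneurons, ran in another order. L2/3-Rorb neurons measured 107, 86.8 and 100.2 CPM and L5-Htr2c neurons 85, 90.7 and 75.7 CPM, and these ranges overlapped. L6-Syt6 neurons (23.7, 24.4 and 24.2 CPM) and L5-Bcl6 neurons (20.9, 17.4 and 30.2 CPM) were lowest and also overlapped. L5-Bcl6 thus held the highest Gria2 and Gria3 means and the lowest Gria4 mean. Across the 21 sums of 7 subtypes in 3 unsorted libraries, log2 levels of Gria3 and Gria4 ran in opposite directions (Pearson r = -0.778), as did those of Gria2 and Gria4 (r = -0.709), whereas Gria1 and Gria3 ran together (r = 0.804). These sums share mice and sequencing depth, and the coefficients are descriptions.

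**Figure D1:**
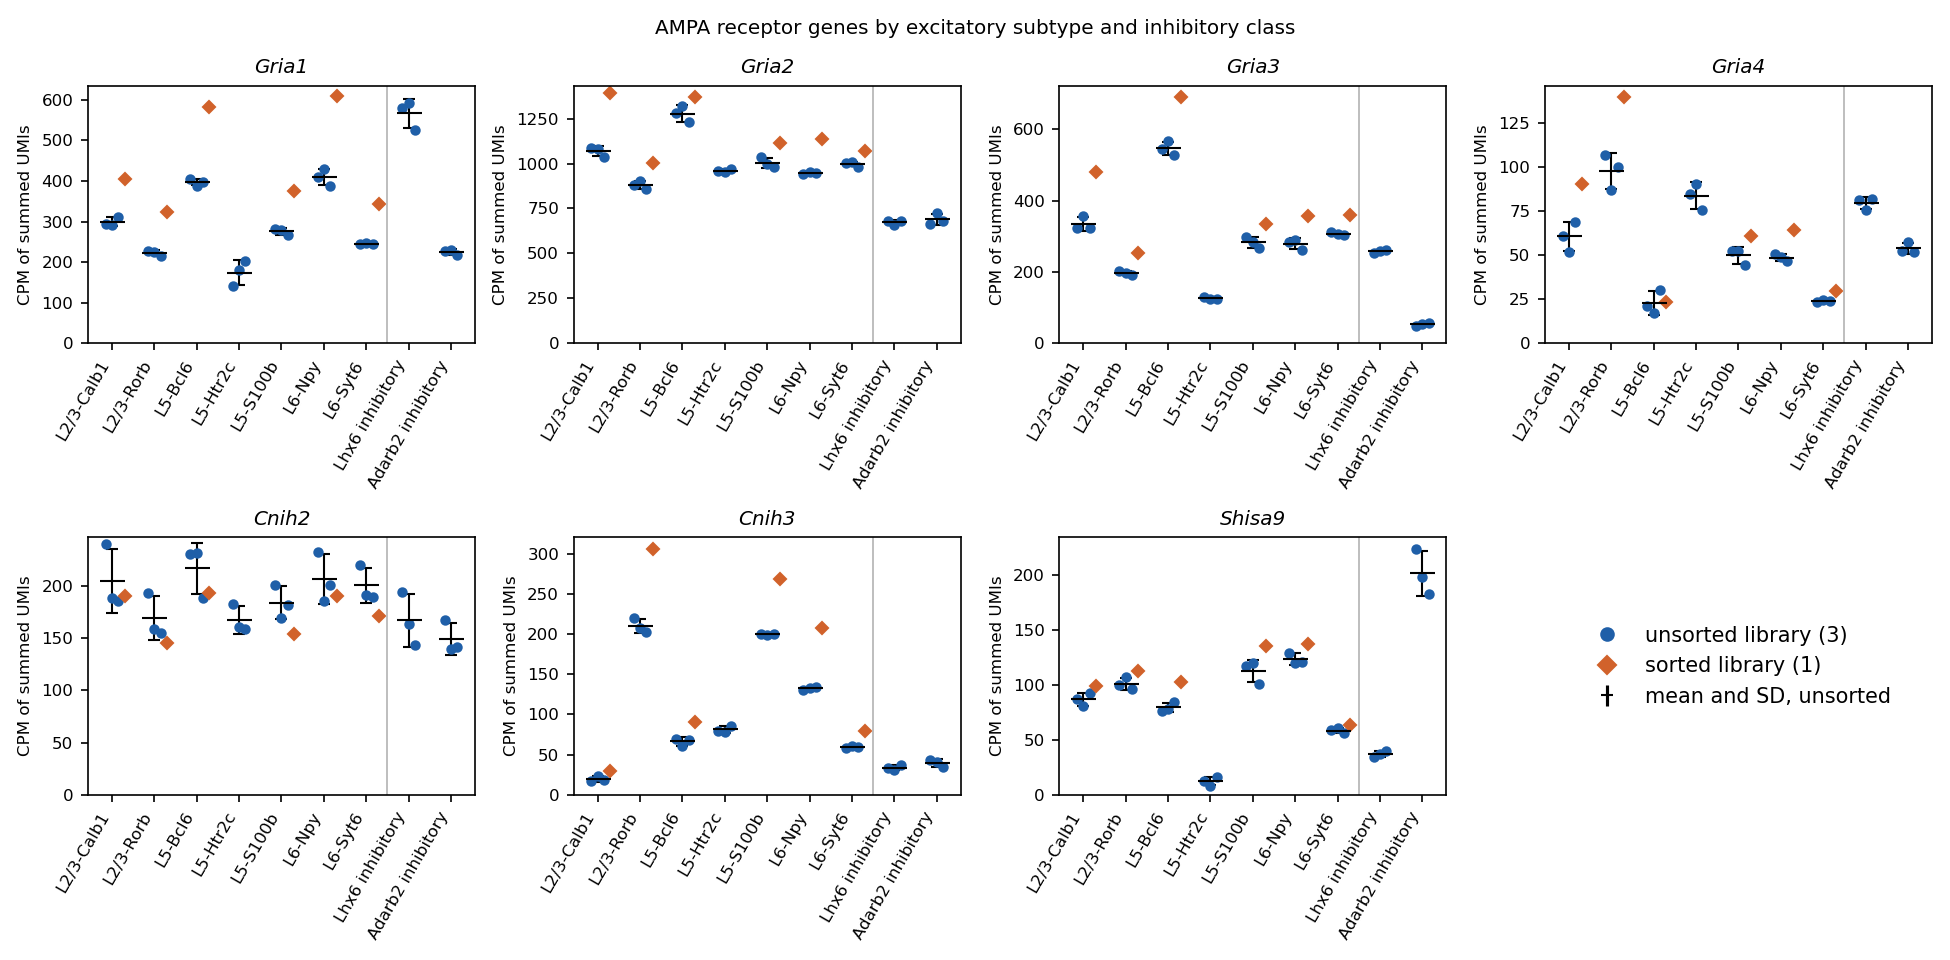
Level in CPM of the 7 genes in each excitatory subtype and in Lhx6 and Adarb2 inhibitory cells, on linear axes from 0, with 1 point per unsorted library, bars for their mean and SD, and a diamond for the sorted library. Cnih2 lies within a narrow band across the excitatory subtypes, while Cnih3 and Shisa9 each have 1 subtype far below the others.

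Among the auxiliary genes, Cnih3 and Shisa9 separated the subtypes more widely than any pore gene, and Cnih2 separated them least. Cnih3, an endoplasmic reticulum export partner that also slows channel deactivation, was highest in L2/3-Rorb neurons at 220, 208 and 203 CPM, followed without overlap by L5-S100b neurons at 200.5, 198.7 and 200.1 CPM. L2/3-Calb1 neurons were lowest at 17.0, 23.6 and 18.9 CPM, so that the upper-layer subtypes held both ends of a 10.6-fold range. L6-Npy (132 ± 1.74 CPM) and L5-Htr2c neurons (81.3 ± 4.22 CPM) lay between them, while L5-Bcl6 (66.3 ± 5.13 CPM) and L6-Syt6 (59.6 ± 1.10 CPM) overlapped.

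Shisa9, which encodes a protein that promotes receptor desensitization, was lowest in L5-Htr2c neurons, at 12.2, 8.37 and 15.7 CPM. L6-Npy neurons were highest at 129, 119.6 and 120.2 CPM, 10.2-fold the L5-Htr2c mean. L5-S100b (112 ± 10.1 CPM) overlapped with L2/3-Rorb, and L2/3-Calb1 overlapped with L5-Bcl6, while L6-Syt6 neurons lay at 58.2 ± 2.37 CPM. The L5-Htr2c neurons had the lowest median depth of the subtypes, 14549 UMIs. When each cell was thinned to 3000 UMIs, 4.44% ± 1.54 of L5-Htr2c neurons had a Shisa9 UMI, against 30.4% ± 1.70 of L6-Npy neurons and 0.546% ± 0.140 of microglia-like cells (median 4182 UMIs). Without thinning, the shares were 14.1%, 91.1% and 0.700%. Likewise, 7.93% ± 1.76 of L2/3-Calb1 neurons had a Cnih3 UMI after thinning, against 46.3% ± 2.92 of L2/3-Rorb neurons and 0.379% ± 0.129 of microglia-like cells. The low subtypes for Shisa9 and Cnih3 thus lay above the microglia-like background.

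Cnih2, a cornichon abundant in hippocampal and cortical pyramidal cells, spanned only 1.30-fold between subtypes, from 167 ± 13.3 CPM in L5-Htr2c to 217 ± 24.3 CPM in L5-Bcl6 neurons. All 6 neighbouring pairs in its order overlapped. Unsorted library 1 was highest in 6 of 7 subtypes, for example 241 CPM against 189 and 185 CPM in L2/3-Calb1 neurons.

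Subtypes of the same layer were then set beside each other. In each of 3 pairs, 6 of the 7 genes had ranges over the unsorted libraries that did not overlap, and Cnih2 was the exception each time. Among all genes with a mean of at least 5 CPM, ranges did not overlap for 70.6% in L6-Npy against L6-Syt6, for 50.7% in L5-S100b against L5-Bcl6 and for 49% in L2/3-Rorb against L2/3-Calb1. In L6-Npy relative to L6-Syt6 neurons, log2 differences of mean CPM were 0.74 for Gria1, 1.014 for Gria4, 1.15 for Cnih3 and 1.08 for Shisa9, but only -0.07 for Gria2 and -0.14 for Gria3. In L5-S100b relative to L5-Bcl6 neurons, Gria1, Gria2 and Gria3 were lower (-0.53, -0.35 and -0.95) while Gria4, Cnih3 and Shisa9 were higher (1.13, 1.59 and 0.50). L2/3-Rorb relative to L2/3-Calb1 neurons had the same signs, with -0.43, -0.28 and -0.76 for the first 3 pore genes and 0.69, 3.41 and 0.21 for Gria4, Cnih3 and Shisa9.

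The genes with the most similar pattern were found among 1115 genes with a mean of at least 20 CPM and an SD of at least 0.5 in log2(CPM + 1) over the same 21 sums. The closest to Gria1 was Opcml (r = 0.960), an adhesion protein gene, then Fosl2 (0.910) and Cdh13 (0.889). Among those closest to Gria2 were Rab8b (0.878) and Nrip1 (0.871). For Gria3 they were Id2 (0.961), Caln1 (0.950) and Gm19410 (0.936), and for Gria4 Camk2n2 (0.956), an inhibitor of CaMKII, Tmem108 (0.916) and Cited4 (0.913). Sccpdh (0.926) and Syngr1 (0.908) were among those closest to Cnih3. Pdgfb (0.976), Kif21b (0.972) and Rtn4r (0.965) were closest to Shisa9. The best match of Cnih2 was weaker, Zfp831 at 0.751, ahead of Cdh13 (0.718) and Id2 (0.714).

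To describe how the pore genes were mixed within a cell group, each was given as a share of the summed Gria1 to Gria4 UMIs. The Gria2 share was highest in L5-Htr2c neurons, 71.5% ± 1.39, and lowest in L6-Npy (56.3% ± 1.17) and L5-Bcl6 neurons (56.9% ± 0.695). The other 4 subtypes lay between 60.6% ± 1.04 and 63.4% ± 0.201. What took the remainder differed between the low-share subtypes. In L6-Npy neurons Gria1 held 24.3% ± 0.639, the highest Gria1 share of any excitatory subtype, whereas in L5-Bcl6 neurons Gria3 held 24.4% ± 0.288, the highest Gria3 share. L5-Htr2c neurons had the lowest Gria1 and Gria3 shares, at 12.9% ± 2.05 and 9.39% ± 0.356. Gria4 held 7.02% in L2/3-Rorb but 1.02% in L5-Bcl6 neurons.

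**Figure D2:**
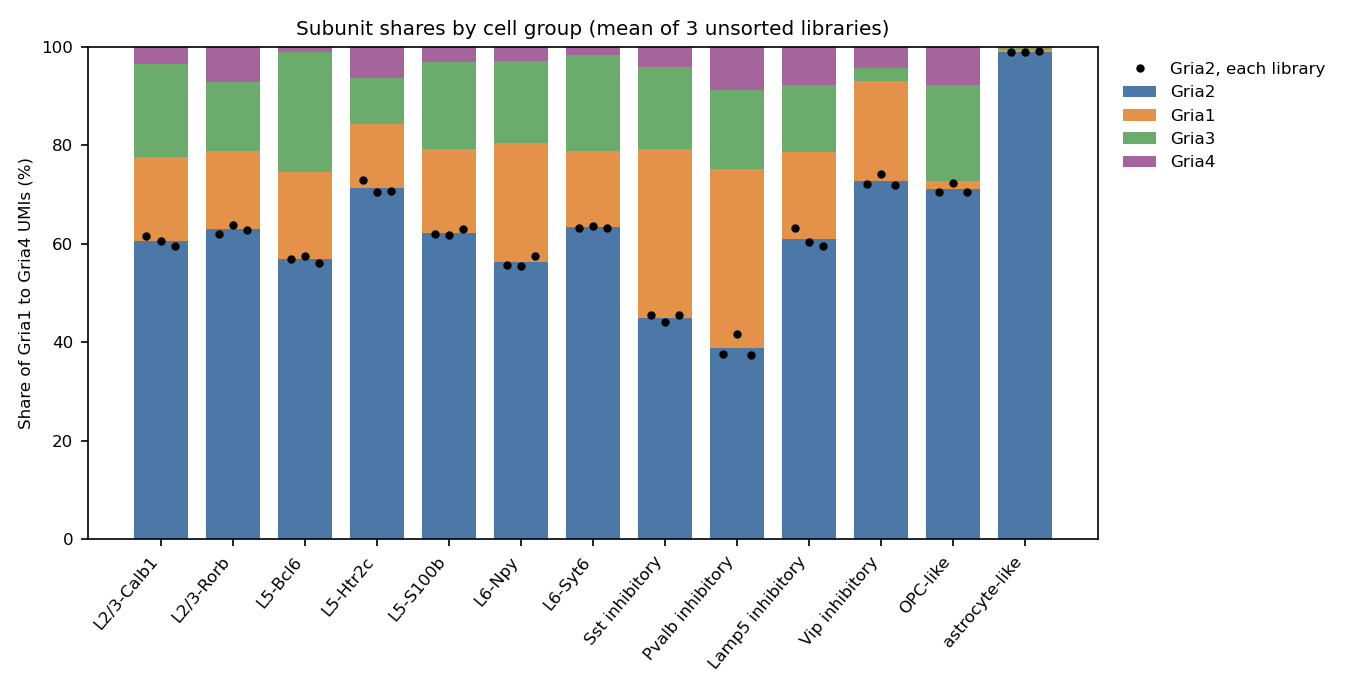
Share in percent of the summed Gria1 to Gria4 UMIs that each pore gene took in the excitatory subtypes, 4 inhibitory classes, OPC-like and astrocyte-like cells, stacked as means over the 3 unsorted libraries, with points for the Gria2 share of each library. Among neurons the Gria2 share runs from 39.0% in Pvalb to 72.8% in Vip cells, and it reaches 99.0% in astrocyte-like cells.

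The next comparison asked how inhibitory neurons differed from excitatory neurons. Inhibitory cells were absent from the authors' table and had at least 4 UMIs of Gad1 and Gad2 together and at most 3 of Slc17a7, and excitatory cells had at least 4 of Slc17a7 and at most 3 of Gad1 and Gad2. None of the 7 genes entered these gates. To be called, a gene had to differ by 0.5 or more on the log2 scale in either direction, at an edgeR adjusted p under 0.05, with the library as a block. Of the 7 genes, 5 were called, Gria4 and Shisa9 higher and Gria2, Gria3 and Cnih3 lower in inhibitory cells. Over all genes tested 37.8% were called, 18.6% higher and 19.2% lower. All 7 genes kept their direction in 3 of 3 libraries.

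Gria3 measured 143, 145 and 146 CPM in inhibitory and 305, 302 and 290 CPM in excitatory cells, a log2 fold change of -1.15 ± 0.0305 (SE, edgeR adjusted p = 7.16e-23). Gria2 measured 671, 700.4 and 687 CPM against 1006, 1009 and 979 CPM (-0.65 ± 0.0234, edgeR adjusted p = 1.26e-19). For both genes every inhibitory value lay below every excitatory value. Cnih3 had the largest difference, with 39.1, 36.2 and 36.9 CPM against 99.5, 97.1 and 98.4 CPM (-1.50 ± 0.0458, edgeR adjusted p = 2.10e-21), also without overlap.

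Gria4 was higher in inhibitory cells, at 66.1, 65.5 and 63.8 CPM against 39.9, 37.7 and 38.9 CPM (0.64 ± 0.0517, edgeR adjusted p = 1.09e-11). Shisa9 measured 134, 127 and 120.0 CPM against 77.8, 78.4 and 73.7 CPM (0.62 ± 0.0440, edgeR adjusted p = 5.87e-13). Neither gene overlapped between the groups. By subtype the called directions did not always hold. Gria4 was higher in L2/3-Rorb (98.0 ± 10.3 CPM) and L5-Htr2c neurons (83.8 ± 7.58 CPM) than in inhibitory cells. In L2/3-Calb1 neurons it overlapped with them, as did Shisa9 in L6-Npy neurons. Cnih3 in L2/3-Calb1 (19.8 ± 3.42 CPM) and Gria3 in L5-Htr2c neurons (126 ± 2.09 CPM) lay below inhibitory cells. For each called gene the other subtypes followed the called direction. Gria1 (0.36 ± 0.0256, edgeR adjusted p = 6.56e-13) and Cnih2 (-0.42 ± 0.0311, edgeR adjusted p = 2.23e-12) passed the p threshold but not the fold limit.

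Inhibitory cells had a median of 13599.5 UMIs and excitatory cells of 22424, and mitochondrial UMIs made up 6.96 to 7.62% and 6.71 to 6.78%. When only cells of 10000 to 20000 UMIs were summed, Gria4 no longer reached the fold limit (log2 fold change 0.37) and 4 of the genes were called. Without TMM scaling the median log2 fold change of all genes moved by 0.105, and no call among the 7 genes changed. The p-values in this and the following tests rest on how much the difference within a library varied from library to library. Information on that spread was shared over all genes, and differences between the libraries themselves were taken out by the block. The unsorted libraries are separate mice.

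The inhibitory total mixed classes with opposite patterns. Cells with Lhx6 and no Adarb2 UMIs, which mark interneuron types of the medial ganglionic eminence such as Pvalb and Sst cells, were compared with cells with Adarb2 and no Lhx6 UMIs, which mark types of the caudal ganglionic eminence such as Vip and Lamp5 cells. They numbered 421 and 795. Of the 7 genes, 4 were called, Gria1, Gria3 and Gria4 higher and Shisa9 lower in Lhx6 cells. Over all genes tested 21.3% were called, 10.3% higher and 11% lower.

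Gria3 measured 252, 259 and 261 CPM in Lhx6 cells and 49.5, 53.8 and 56.1 CPM in Adarb2 cells, a log2 fold change of 2.28 ± 0.0703 (SE, edgeR adjusted p = 9.41e-19). Gria1 measured 580.5, 592 and 526 CPM against 228, 229 and 216 CPM (1.34 ± 0.0476, edgeR adjusted p = 1.61e-17). Shisa9 ran the other way, with 34.3, 37.4 and 39.7 CPM against 223, 198 and 182 CPM (-2.44 ± 0.0890, edgeR adjusted p = 2.79e-17). In these 3 genes the classes were far apart in every library.

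Gria4 measured 81.2, 75.5 and 81.8 CPM in Lhx6 and 52.4, 57.7 and 51.6 CPM in Adarb2 cells (0.56 ± 0.0909, edgeR adjusted p = 1.96e-05). The Gria2 values of 680.3, 659.9 and 679 CPM in Lhx6 cells overlapped with 664, 723 and 682 CPM in Adarb2 cells (-0.03 ± 0.0420, edgeR adjusted p = 0.639). Cnih2 (0.17 ± 0.0652, edgeR adjusted p = 0.0461) and Cnih3 (-0.23 ± 0.119, edgeR adjusted p = 0.137) were not called. Lhx6 cells were deeper, with a median of 17789 UMIs against 11141. Among cells of 8000 to 20000 UMIs the Gria4 difference was 0.31, the Gria2 difference was -0.18 (edgeR adjusted p = 0.00139) and 3 genes were called. After thinning to 3000 UMIs, 72.4% ± 5.83 of Lhx6 and 46.0% ± 3.13 of Adarb2 cells had a Gria1 UMI, and 10.3% ± 2.69 and 31.7% ± 0.886 had a Shisa9 UMI. The same shares in microglia-like cells were 2.23% ± 0.533 and 0.546%, and without thinning the Gria1 shares were 98.2% and 84.5% and the Shisa9 shares 31.0% and 58.7%.

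With overlapping Gria2 levels and higher Gria1 and Gria3 levels in Lhx6 cells, the Gria2 share differed between the classes. It was 42.7, 41.6 and 43.8% in Lhx6 cells and 66.8, 68.0 and 67.8% in Adarb2 cells. The share over all inhibitory cells, 54.1% ± 0.983, lay between these values and below the 62.2% ± 0.148 of excitatory cells.

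In an analysis chosen after the data had been seen, each class was compared with excitatory cells on its own. With only Lhx6 cells, 5 genes were called, against 33.3% of all genes. Gria1 now reached the fold limit (log2 fold change 0.98), Gria3 did not (-0.31), and Shisa9 was lower than in excitatory cells (-1.14). With only Adarb2 cells, 4 genes were called, against 38% of all genes. Gria3 fell by 2.59 and Shisa9 rose by 1.29 on the log2 scale, Gria1 was lower (-0.37, under the fold limit) and Gria4 (0.38) was not called. Gria2 (-0.66 and -0.63) and Cnih3 (-1.64 and -1.41) were lower than in excitatory cells in both classes.

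**Figure D3:**
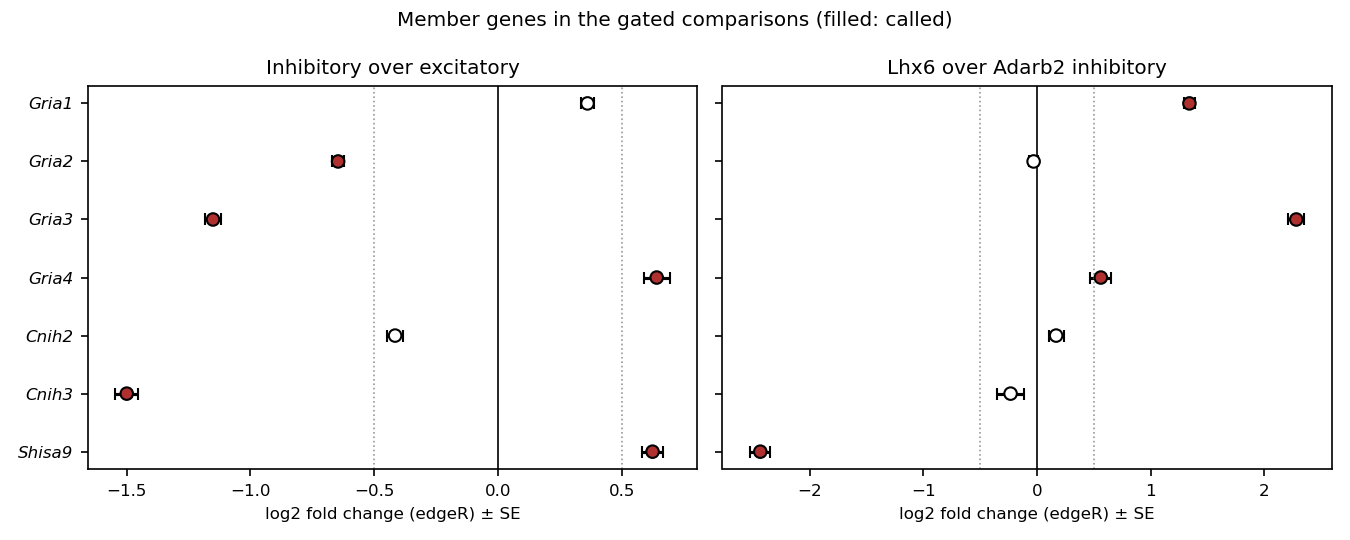
Log2 fold change with its SE for the 7 genes in the edgeR comparisons of inhibitory with excitatory cells (left) and of Lhx6 with Adarb2 inhibitory cells (right). Filled points are called, dotted lines mark the fold limit of 0.5, and the points for Gria3 and Shisa9 lie on opposite sides of 0 in each panel.

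Smaller gates within the inhibitory cells gave the class values. These gates did not use Lhx6 or Adarb2, so a class may hold cells with either gene. Pvalb cells, of which there were 48, had the highest Gria4 level (137 ± 13.2 CPM), the lowest Cnih2 level (77.9 ± 5.09 CPM) and the lowest Gria2 share (39.0% ± 2.44) of the 4 classes. Sst cells (381 cells) had a Shisa9 level of 20.2 ± 3.39 CPM, whereas Pvalb (157 ± 31.3 CPM), Vip (128 ± 11.8 CPM) and Lamp5 cells (124 ± 38.0 CPM) were all above it. The Shisa9 level of Lhx6 cells, 37.1 ± 2.72 CPM, lay between those of Sst and Pvalb cells. Vip cells (486 cells) had the lowest Gria3 level, 30.1 ± 4.04 CPM, against 150 ± 18.0 CPM in Lamp5 cells (89 cells) and about 250 CPM in the other classes (251 ± 7.34 CPM in Sst and 254 ± 35.6 CPM in Pvalb cells). The Gria2 share of Vip cells was 72.8% ± 1.29.

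Other genes of the AMPA receptor pathway were counted from 3 lists. Of 10 other auxiliary genes, 7 rose and 2 fell in inhibitory relative to excitatory cells, with a median log2 fold change of 1.18 against -0.005 over all genes, of which 18.6% were called higher and 19.2% lower. The TARP genes Cacng2 (stargazin, 1.15), Cacng4 (1.62), Cacng5 (3.18), Cacng7 (1.21) and Cacng8 (0.51) rose, as did Shisa6 (2.83) and Shisa8 (7.80, from 0.105 to 25.8 CPM). Gsg1l, a claudin-like auxiliary subunit gene, fell by 3.26 and Shisa7 fell by 0.62. Cacng3 was not called. Of 10 genes for assembly and secreted partners, only Olfm2 (0.75) rose and 4 fell, namely Olfm1 (-1.73), Frrs1l (-1.08), a receptor assembly factor, Olfm3 (-0.85) and Porcn (-0.56), with a list median of -0.39. Of 11 scaffold, trafficking, editing and kinase genes, Grip1 (2.17), Grip2 (1.04) and Adarb1 (0.64), the enzyme that edits the Gria2 transcript, rose. Camk2a (-1.51), Dlg1 (-1.23) and Dlg4 (-0.66), which encodes PSD-95, fell, and the list median was 0.05.

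Between the inhibitory classes, where 10.3% of all genes were called higher and 11% lower, Cacng3 (1.32), Shisa7 (0.96) and Shisa6 (0.93) were higher and Shisa8 (-3.03), Cacng4 (-1.41) and Cacng5 (-0.66) lower in Lhx6 cells, with a median of 0.07 over the 10 auxiliary genes against -0.001 over all genes. No assembly or secreted partner was called higher, and Olfm1 (-1.13), Olfm2 (-0.59), Abhd6 (-0.57) and Porcn (-0.53) were lower (median -0.18). Among the scaffold and kinase genes, Akap5 (2.14), an anchoring protein for protein kinase A, and Grip2 (0.59) were higher, Grip1 (-1.01) and Camk2a (-0.56) were lower, and the median was 0.05.

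The study's label allowed a further comparison within a subtype, between neurons with at least 5 UMIs of the viral barcode feature and neurons with 0. The matrices hold 1 such feature for all targets, so the groups cannot be assigned to a target. Viral load below names this grouping by barcode count only. Because the virus is taken up in the injected targets, the amount of virus and projection to any target cannot be told apart. A count of 0 does not show that a neuron was not infected. Both groups reached 10 cells in every library for 4 subtypes. None of the 7 genes was called in any of them. Over all genes tested, 1.67% were called for L6-Syt6 neurons, 2.65% for L5-S100b, 0.775% for L6-Npy and 0.142% for L2/3-Rorb. The numbers of the 7 genes with an unadjusted edgeR p under 0.05 were 4, 4, 1 and 0 in that order, and DESeq2 called 0 in each.

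Some smaller differences passed the p threshold without reaching the fold limit. In L6-Syt6 neurons Gria2 measured 918, 930.4, 891 and, in the sorted library, 980.1 CPM in barcode-high cells against 1031, 1037, 1026 and 1278 CPM in barcode-zero cells. The groups did not overlap. Gria2 was lower in 4 of 4 libraries, with a log2 fold change of -0.18 ± 0.0464 (SE, edgeR adjusted p = 0.0489). The barcode-high cells were deeper, with a median of 25297.5 against 22168 UMIs in the unsorted libraries. Within cells of 15000 to 35000 UMIs the adjusted p was 0.0727 and with DESeq2 it was 0.0766. Without unsorted library 1, 2 or 3 the edgeR adjusted p was 0.167, 0.190 and 0.216. Leaving out the sorted library gave 7.33e-13.

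In L5-S100b neurons Gria1 measured 269, 271, 259 and, sorted, 357 CPM in barcode-high against 333, 338, 283 and 419.5 CPM in barcode-zero cells (-0.21 ± 0.0579, edgeR adjusted p = 0.0194, lower in 4 of 4 libraries). Shisa9 measured 110.5, 116, 95.3 and, sorted, 129 CPM against 134, 152, 122 and 147 CPM (-0.27 ± 0.0781, edgeR adjusted p = 0.0313, lower in 4 of 4). Both pairs differed in the same direction within each library, but the ranges over all 4 libraries overlapped. Gria4 was also lower and Gria3 higher in barcode-high cells, but neither passed the adjusted p threshold. In the unsorted libraries Gria4 measured 45.2 ± 2.90 against 59.4 ± 6.35 CPM, and sorted 55.4 against 63.9 CPM. Gria3 measured 290 ± 13.7 against 253 ± 22.2 CPM, and sorted 338 against 333 CPM. Median depth was again higher in barcode-high cells, at 27185 against 21511 UMIs in the unsorted libraries. Within cells of 15000 to 35000 UMIs, Gria1 differed by -0.23 (edgeR adjusted p = 0.0269) and Shisa9 by -0.28 (edgeR adjusted p = 0.0597). With DESeq2 the adjusted p was 0.186 for Gria1 and 0.278 for Shisa9, and with single libraries left out the edgeR adjusted p reached 0.196 and 0.223.

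In L6-Npy neurons the 7 log2 fold changes lay between -0.06 and 0.23, and in L2/3-Rorb neurons between -0.03 and 0.14. The largest of them, Gria4 in L6-Npy neurons (0.23 ± 0.109, edgeR adjusted p = 0.452), was higher in 4 of 4 libraries, at 51.4, 54.6, 49.8 and 69.0 CPM against 43.3, 48.2, 45.1 and 57.0 CPM.

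**Figure D4:**
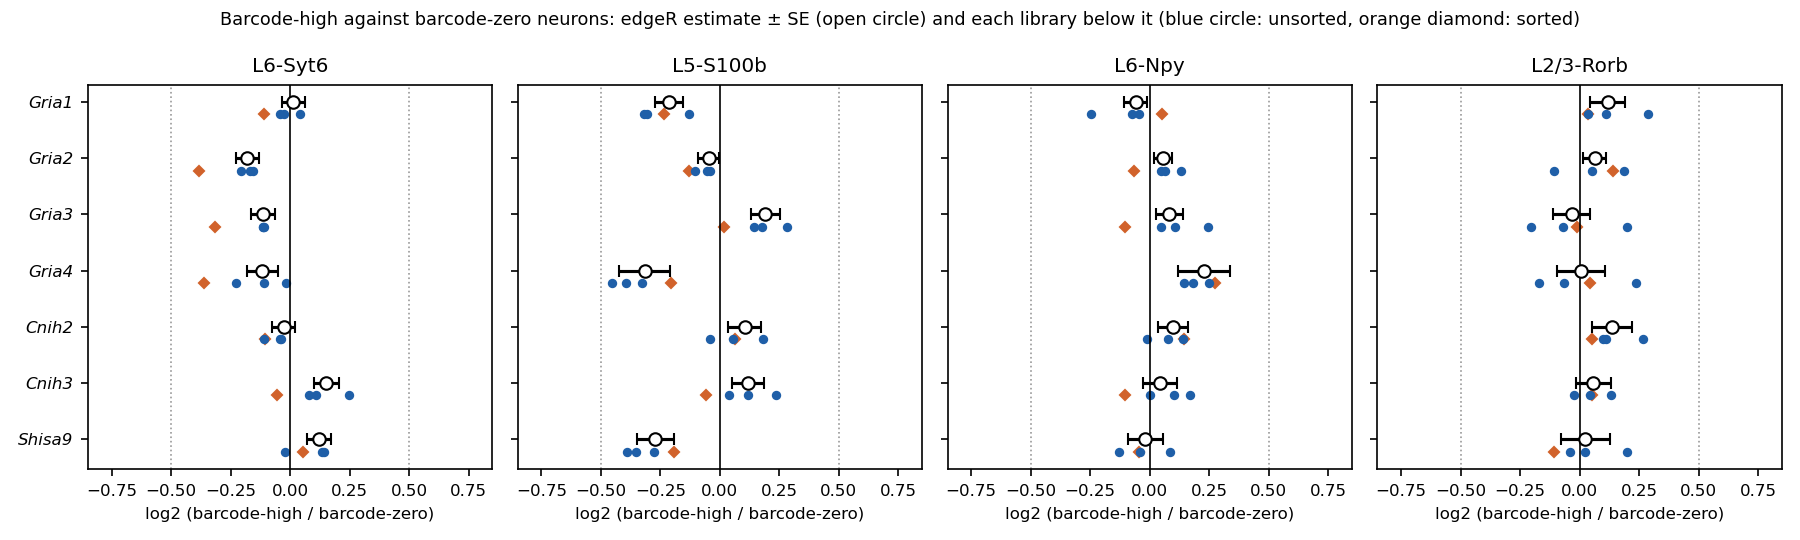
Log2 fold change with its SE of barcode-high over barcode-zero neurons for the 7 genes in 4 subtypes (open circles, edgeR with library as a block), with the log2 CPM ratio of each unsorted (blue) and sorted (orange) library under it. All points lie within the fold limit of 0.5, and the negative values of Gria2 in L6-Syt6 and of Gria1 and Shisa9 in L5-S100b neurons are those with an adjusted p under 0.05.

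The difference with viral load was also compared between subtypes by an interaction term, in 42 tests of the 7 genes over 6 pairs of subtypes. Of these, 5 had an edgeR adjusted p under 0.05. They were Gria3 and Shisa9 in L6-Syt6 against L5-S100b, where 6.69% of all genes passed the same limit, Gria2 in L6-Syt6 against L6-Npy (3.36% of all genes) and against L2/3-Rorb (1.47%), and Gria4 in L5-S100b against L6-Npy (1.13%). The remaining pairs, L5-S100b against L2/3-Rorb (0.695%) and L6-Npy against L2/3-Rorb (0.0166%), held none of the 7 genes. The choice of these tests followed a look at the data, and each of the 5 lost its call when at least 1 library was left out.

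Among the partner lists, genes were called with viral load in L5-S100b neurons only, where the share of all genes called, 2.65%, was also the highest of the 4 subtypes. A restriction to 1 subtype was not itself tested. There Cacng4 fell by 1.03, of 7 auxiliary genes tested, while Olfm3 (0.70) and Syndig1 (0.64), whose product takes part in synapse differentiation, rose, of 10 assembly and secreted partners. The remaining list of that subtype was led by Akap5 (0.48) and Pick1 (-0.25), neither called. In L6-Syt6 neurons the genes with the largest changes per list, none called, were Shisa6 (-0.47) and Cacng4 (-0.24), Porcn (0.34) and Olfm3 (-0.31), and Grip2 (-0.18) and Camk2a (0.14). In L6-Npy neurons they were Cacng4 (-0.74) and Gsg1l (-0.35), Olfm2 (0.47) and Frrs1l (0.14), and Grip2 (-0.40) and Dlg1 (0.20). In L2/3-Rorb neurons they were Gsg1l (-0.47) and Cacng4 (-0.36), Abhd6 (0.36) and Olfm3 (0.20), and Adarb1 (0.29) and Grip1 (0.23).

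Lastly, the sorted EGFP+ library was set beside the unsorted libraries within each of 6 subtypes. It is a single library, so no test was possible, and sorting, pooling of mice and depth cannot be told apart in it. Its Gria1, Gria2, Gria3, Cnih3 and Shisa9 levels lay above every unsorted library in 6 of 6 subtypes, and Gria4 in 5 of 6. Among all genes with a mean of at least 5 CPM, the share above every unsorted library was 48.3% in L2/3-Calb1, 49.2% in L2/3-Rorb, 44.3% in L5-Bcl6 and 50% in L5-S100b neurons. For L6-Npy and L6-Syt6 neurons it was 52.1% and 53.3%. The median log2 ratio of all genes was 0.08 to 0.14. Gria1 was 1.35 to 1.49-fold and Cnih3 1.32 to 1.57-fold the unsorted mean, compared with 1.07 to 1.31-fold for Gria2. In L6-Npy neurons, for example, sorted Gria1 was 610 CPM beside 389 to 429 CPM. Cnih2 differed from the rest, at 0.839 to 0.930-fold, below every unsorted library in 3 subtypes and within their range in 3. Of all genes, 30.7% lay below every unsorted library in L2/3-Calb1, 30.8% in L2/3-Rorb, 29.7% in L5-Bcl6 and 30.7% in L5-S100b neurons. For L6-Npy and L6-Syt6 neurons it was 30.1% and 32.5%.

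**Figure D5:**
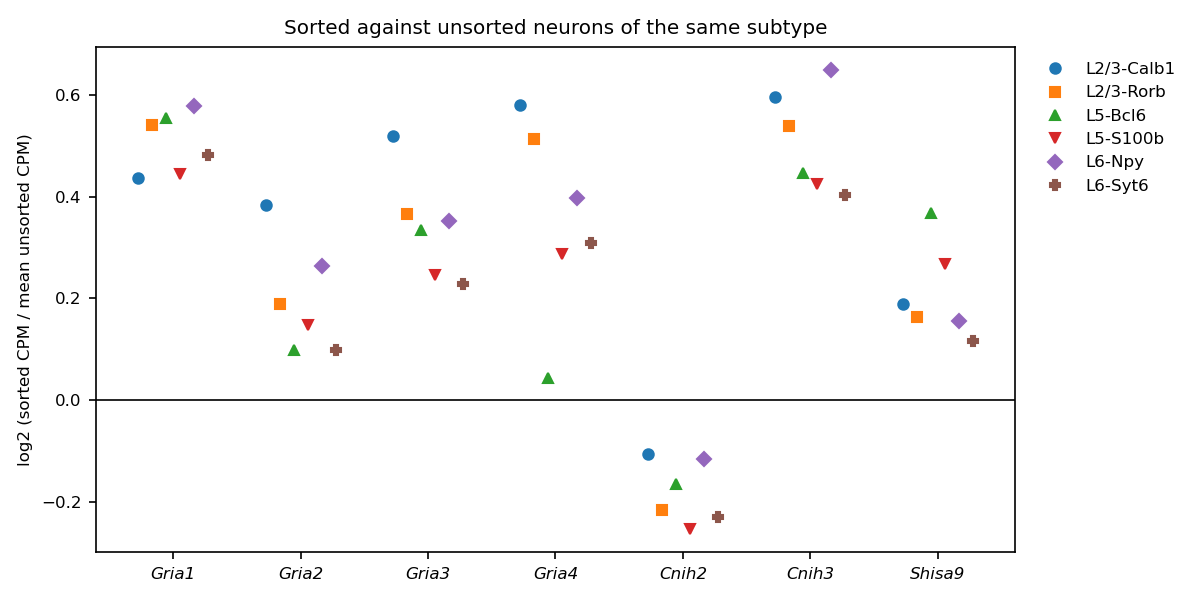
Log2 ratio of the CPM in the sorted library to the mean CPM of the 3 unsorted libraries for the 7 genes in 6 excitatory subtypes. Cnih2 lies below 0 in all 6 subtypes, and the other 6 genes lie above 0.

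The Gria2 share of the sorted library, 51.3 to 59.3%, was below that of every unsorted library in 6 of 6 subtypes. Its Gria1 share was above them in 5 of 6 subtypes, reaching 28.1% in L6-Npy neurons, and within their range in L2/3-Calb1 neurons (17.1%). Mitochondrial UMIs made up 2.92 to 4.53% of the sorted subtypes and 6.08 to 8.40% of the unsorted ones, and their part in these differences was not tested.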

How the data were processed

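The authors prepared the libraries with 10x Genomics 3' v3 chemistry and made UMI count matrices with Cell Ranger 3.0.2, per the file headers, against mm10 with added viral sequence. They deposited raw counts per gene and cell, with a table of excitatory neurons and their subtype labels, made with Seurat 3.1.4. Here the gates were applied to 21263 of 24801 cells, those with 1000 to 60000 UMIs, 500 to 8000 genes and less than 20% of UMIs from mitochondrial genes. The counts of each cell group were then added up within a library. No doublet caller was run. In the unsorted libraries, 53 cells carried genes of both the inhibitory and excitatory gates, and they were left out of both. Over all libraries, with the sorted one included, 17 such cells are in the authors' table. Sums of under 10 cells were not used.

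Summed counts were tested over all genes with edgeR 4.0.16 (quasi-likelihood, TMM, filterByExpr) in R 4.3.3, with the library as a block, because both groups of each comparison came from the same library. Adjusted p-values are Benjamini-Hochberg values over all genes tested, and DESeq2 1.42.0 was an alternative. Tested on simulated data for each comparison, the fit recovered 84.5 to 100% of 200 genes changed 2-fold, with 2 to 15 false calls. The simulation used a single fixed spread for all genes and no library differences beyond depth. Its changed genes were drawn from those above a minimum level. Smaller changes, such as those seen with viral load, were not simulated. The 7 genes were followed in every comparison. For viral load, only some of them are given with values in the text, and the figure shows all 7. Partner genes were named where called or, in a list with no call, for the 2 largest fold changes, and 3 genes most alike were named per gene, except that 1 each for Gria2 and Cnih3 is not reported here. The genes and lists were chosen with earlier results of these data known. Pick1 was counted under the identifier present in GENCODE M21.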

Additional observations from a re-analysis of the deposited data

Results flagged for a closer look

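The log2 difference of barcode-high over barcode-zero neurons is called the effect on a gene here. It was compared between the 4 subtypes by an interaction term in edgeR. This gave 42 tests over 6 pairs of subtypes, of which 5 had an edgeR adjusted p under 0.05. The p-values were adjusted over all genes within a pair and not over the pairs, and the results without single libraries were computed after the data had been seen. Differences are given as the first subtype minus the second. The effect on Shisa9, 0.12 in L6-Syt6 and -0.27 in L5-S100b neurons when each was fitted alone, differed by 0.40 ± 0.0914 (SE, edgeR adjusted p = 0.00413). That on Gria3, -0.11 and 0.19, differed by -0.30 ± 0.0812 (edgeR adjusted p = 0.0179), in a pair where 6.69% of all genes had an adjusted p under 0.05. The Shisa9 difference lost its call without unsorted library 1 or 2 (adjusted p up to 0.1004) and the Gria3 difference without any single unsorted library (up to 0.0908). The effect on Gria2 differed by -0.24 ± 0.0643 between L6-Syt6 and L6-Npy neurons (edgeR adjusted p = 0.0298, 3.36% of all genes) and by -0.25 ± 0.0667 between L6-Syt6 and L2/3-Rorb neurons (edgeR adjusted p = 0.0409, 1.47% of all genes). The first was lost without any single unsorted library (up to 0.212), and the second was kept only without unsorted library 1 (adjusted p 0.0383 to 0.286 over the 4 fits). The effect on Gria4 differed by -0.55 ± 0.144 between L5-S100b and L6-Npy neurons (edgeR adjusted p = 0.0446, 1.13% of all genes), and this call was lost without any 1 of the 4 libraries (0.0853 to 0.312).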

How the results depend on the processing

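The counts of called genes among the 7 kept their side under the other settings, with 5 and 4 called in the inhibitory comparisons without any single library and 0 in each viral load comparison. The exceptions were the depth windows given above, with 4 and 3 called, and the comparison of only Adarb2 cells with excitatory cells, with 4. Leaving out the replicate block kept 5, 4, 0, 0, 0 and 0 calls. The Gria2 share moved by more than its SD in L6-Syt6 neurons as a mean over cells (63.8%), and in inhibitory cells as a mean over cells (58.3%) or within 15000 to 35000 UMIs (47.5%). Of the levels of the 7 genes by subtype, 8 moved by more than their SD as a mean over cells and 41 did not. Within 15000 to 35000 UMIs, 8 levels moved.

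Signs changed for Shisa9 with only Lhx6 cells (-1.14) and Gria1 with only Adarb2 cells (-0.37). They also changed for small differences with viral load: Gria1 in L6-Syt6 without TMM (-0.033), Cnih3 in L6-Npy at 1 or more barcode UMIs (-0.017), and in L2/3-Rorb Gria3 without the filter (0.0099) and Shisa9 within 15000 to 35000 UMIs (-0.033). Without single libraries, values spanned 0 for Gria2 in Lhx6 against Adarb2 cells (-0.067 to 0.019), Gria1 in L6-Syt6 (-0.0038 to 0.023), Shisa9 in L6-Npy (-0.055 to 0.0094), and in L2/3-Rorb Gria3 (-0.10 to 0.039), Gria4 (-0.064 to 0.064) and Shisa9 (-0.030 to 0.052). The cause was not tested.

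Counts over all genes moved more. In L6-Syt6 neurons 225 genes were called, against 25 at 1 or more barcode UMIs, 75 without the block and 29 to 325 without single libraries. In L5-S100b neurons 319 were called, against 144 with DESeq2, 202 at 1 or more barcode UMIs and 58 without the block. In L6-Npy neurons 84 were called, against 11, 27 and 0, and in L2/3-Rorb neurons 15, against 0, 9 and 0, and 28 without the filter. In Lhx6 against Adarb2 cells 2526 were called, and 1518 with DESeq2. Only 3 or 4 libraries enter each test, and detection shares depend on depth, since all 56 moved without thinning.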

Other observations

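Among the non-neuronal cells of the unsorted libraries, OPC-like and astrocyte-like cells held Gria2 within or above the range of the neuronal groups. OPC-like cells (1712 cells, median 4083 UMIs) had Olig2 at 1436 CPM. Their Gria2 level was 1032 ± 22.2 CPM, Gria3 282 ± 8.73 CPM, Gria4 113 ± 5.99 CPM and Shisa9 108 ± 2.18 CPM (n = 3), while Gria1 lay at 24.5 ± 1.88 CPM and Cnih3 at 1.79 ± 1.86 CPM. Gria1 thus took 1.69% ± 0.130 of their pore gene UMIs. Astrocyte-like cells (429 cells, median 3408 UMIs, Aldoc at 3705 CPM) had a Gria2 level of 1731 ± 55.9 CPM, above every neuronal group, and Gria2 took 99.0% ± 0.151 of their pore gene UMIs. Their Gria1 (6.21 ± 3.68 CPM), Gria3 (8.85 ± 0.445 CPM) and Cnih2 levels (6.25 ± 2.60 CPM) were near those of microglia-like cells (6.95 ± 0.889, 8.20 ± 0.198 and 8.09 ± 1.07 CPM), whereas Shisa9 was at 51.8 ± 8.10 CPM against 1.83 ± 0.320 CPM. After thinning to 3000 UMIs, 96.0% of astrocyte-like and 92.8% of OPC-like cells had a Gria2 UMI, against 5.26% of microglia-like cells.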
